A study of Mus musculus with 12 samples.

Results

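Expression of the inter-alpha-trypsin inhibitor family was followed in mouse pancreas with and without chronic pancreatitis. The family members are Itih1, Itih2, Itih3, Itih4 and Itih5, which encode heavy chains, and Ambp, which encodes the light chain. These 6 genes, of 18194 with a probe set of their own, were chosen by name as a family, because Itih4 had been selected on its lower signal after cerulein in these same arrays. The cerulein difference of Itih4 is therefore given as a description, without a test. Each gene was represented by its probe set with the highest mean over the 12 arrays. A probe set was tested where it exceeded log2 4 on at least 3 arrays, which 4 of the 6 members and 8505 genes in all did.

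RNA came from the pancreas of 8-week-old mice, with 1 Affymetrix array per mouse and 3 mice in each of 4 groups. The substrains were C57BL6/NHsd (Harlan) and C57BL6/J (Jackson), called NHsd and J here. In each substrain 3 mice had chronic pancreatitis induced with cerulein, an analogue of the hormone cholecystokinin, and 3 were saline-injected controls. Control mice are labelled female; for the treated mice no sex is given, nor a dose or duration of cerulein. Signals, on a log2 scale, ran from 2.39, the lowest value of each array, to 16.37. Markers of acinar cells, which make up most of the pancreas, were measured well: 7 of 8 had a probe set, none of these lay under log2 4 throughout, and their summed signal was log2 17.32 to 17.87 on the 12 arrays. The median tested gene was 0.49 log2 higher after cerulein, so a member's difference should be read against that shift. Control transcripts spiked into each hybridization averaged log2 8.40 to 8.91 on the cerulein arrays and 10.38 to 11.59 on the saline arrays (6 probe sets). Any array effect that moves with them cannot be told apart from the treatment. In these samples fewer cells of a type and less RNA per cell cannot be told apart either.

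Inter-alpha-trypsin inhibitor is a plasma protein made mostly by the liver. Heavy chains are joined through a chondroitin sulphate chain to bikunin, a Kunitz-type inhibitor of serine proteases such as trypsin. Bikunin is cut from the Ambp precursor, which also gives the lipocalin alpha-1-microglobulin. In inflamed tissue the heavy chains can be moved onto hyaluronan, a large sugar polymer of the matrix, by the protein TSG-6. The product of Itih4 is not joined to bikunin and is known as an acute phase protein cut by plasma kallikrein.

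The promoters of the 3 members whose signals differed most between treatments are shown because Ambp and Itih5 moved one way and Itih4 the other. Each window runs from 250 bases before to 50 bases after the annotated start and comes from RefSeq (build GRCm38.p6), with 300 bases written 5′ to 3′ on the strand of the gene. Capitals mark matches to the searched motifs. Itih4 lies on the plus strand at chr14:30886226-30886525, Ambp on the minus strand at chr4:63154123-63154422 and Itih5 on the plus strand at chr2:10153293-10153592.
Itih4: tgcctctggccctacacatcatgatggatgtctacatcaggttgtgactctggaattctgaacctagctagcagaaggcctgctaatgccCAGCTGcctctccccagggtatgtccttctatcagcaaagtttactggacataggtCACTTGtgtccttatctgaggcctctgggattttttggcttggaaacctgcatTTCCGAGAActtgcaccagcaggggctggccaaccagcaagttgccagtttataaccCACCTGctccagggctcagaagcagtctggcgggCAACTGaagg
Ambp: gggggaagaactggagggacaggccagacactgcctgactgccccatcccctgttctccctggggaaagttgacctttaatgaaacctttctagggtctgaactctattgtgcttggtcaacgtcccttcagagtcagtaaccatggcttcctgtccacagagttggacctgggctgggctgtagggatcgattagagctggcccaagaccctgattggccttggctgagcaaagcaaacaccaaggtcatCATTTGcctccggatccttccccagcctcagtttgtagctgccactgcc
Itih5: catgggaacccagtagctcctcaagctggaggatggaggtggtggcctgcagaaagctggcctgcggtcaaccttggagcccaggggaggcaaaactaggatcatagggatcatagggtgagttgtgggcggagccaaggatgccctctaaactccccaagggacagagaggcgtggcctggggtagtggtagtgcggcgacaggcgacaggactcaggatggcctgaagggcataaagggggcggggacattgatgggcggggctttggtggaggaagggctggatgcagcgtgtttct

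The motifs were searched on both strands, for factors of the acute phase, the liver and acinar cells: STAT (TTCNNNGAA), C/EBP (TTGCNNAA), an HNF1 half-site (GTTAAT), an HNF4 core (CAAAGTC) and the E-box (CANNTG). The Itih4 window held 1 STAT match, TTCCGAGAA, beginning at position -51 from the start, and 4 E-boxes. A STAT match was found in 8.30% of the 32851 promoter windows of the same length, and an E-box in 72.3%. The Ambp window held 1 E-box and the Itih5 window no match. Among the other members, the Itih2 window held 1 C/EBP match (found in 10.8% of windows), the Itih1 window 1 HNF1 half-site (7.10%) and the Itih3 window 1 E-box. No member's window held the HNF4 core (4.44%). These matches describe letters in the windows only.

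Itih4 had the highest signals in NHsd pancreas after saline and the lowest in J pancreas after cerulein. On NHsd saline arrays it was log2 8.28, 8.47 and 8.69, and on NHsd cerulein arrays 5.36, 4.19 and 4.63. On J saline arrays it was 6.79, 6.73 and 6.95, and on J cerulein arrays 2.89, 2.74 and 2.72. No group overlapped another, and the order of the means was NHsd saline (8.48 ± 0.21), J saline (6.83 ± 0.11), NHsd cerulein (4.72 ± 0.59) and J cerulein (2.78 ± 0.10; SD, n = 3 each). In NHsd mice the signal was 3.76 log2 lower after cerulein than after saline (SE 0.24). In J mice all cerulein arrays lay under log2 4, so the signal was at least 7.09-fold lower. These values stand on the side opposite to the median gene, which was 0.49 log2 higher in NHsd and 0.47 log2 higher in J.

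**Figure D1:**
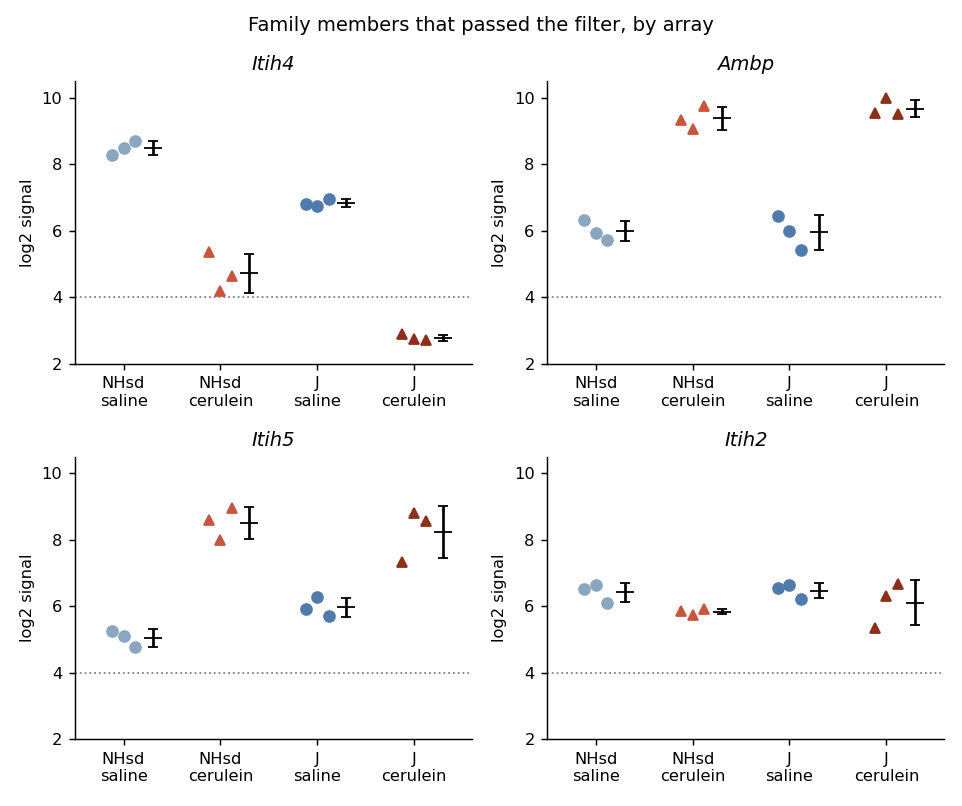
Log2 signal (y axis) of the 4 members that passed the filter, in each of the 4 groups (x axis). Points are single arrays, the bar beside them is the mean with its SD (n = 3), and the dotted line is log2 4. Itih4 is lower and Ambp and Itih5 are higher on every cerulein array than on every saline array, while the Itih2 points of both treatments overlap.

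Itih4 also differed between the substrains. Its tests between substrains, here and below, use the same arrays on which it was selected, so they are not independent of that choice. Whether its substrain difference was known at the selection is not stated. In saline-treated mice J minus NHsd was -1.66 log2 (SE 0.24), 3.15-fold lower in J, lower in 3 of 3 J arrays (limma adjusted p = 0.0365 over 8505 genes). Itih4 was the only member called in that comparison, of 4 tested. It was 1 of 4 genes called lower in J, which is 0.047% of those tested. The call did not hold in every setting. It ended without any 1 of the 6 saline arrays, which gave adjusted p = 0.0853 to 0.211, and without NHsd cerulein replicate 3 (0.0623), J cerulein replicate 2 (0.0565) or J cerulein replicate 3 (0.0811). It ended too with only the saline groups in the fit (adjusted p = 0.0628), when unfiltered genes were included (0.0544) and with the replicate number as a block (0.0926). The difference lay between -1.76 and -1.55 log2 with each array left out in turn.

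After cerulein Itih4 was at least 1.65-fold lower in J than in NHsd, since the J arrays were under log2 4. The limma adjusted p was 0.00480, and 0.0588% of genes were called lower in J in that comparison. The adjusted p was 0.324 with only the cerulein groups in the fit and 0.0556 when unfiltered genes were included. The cerulein difference measured -4.04 log2 in J and -3.76 in NHsd. The difference between them was -0.29 (SE 0.34, 95% interval -1.03 to 0.45; limma adjusted p = 0.822). The J value rests on signals under log2 4. For none of the 4 members did the cerulein effect pass limma's test of a difference between substrains, which 1 of 8505 genes (0.0118%) passed. Without adjustment 598 genes lay under 0.05 in that limma test, Itih5 among them.

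Ambp, the bikunin precursor gene, rose after cerulein in both substrains. It was log2 6.33, 5.94 and 5.71 on NHsd saline arrays and 9.33, 9.05 and 9.74 on NHsd cerulein arrays. On J saline arrays it was 6.45, 5.98 and 5.42, and on J cerulein arrays 9.54, 9.98 and 9.50. Every cerulein array lay at least 2.60 log2 above every saline array. The rise was 3.38 log2 in NHsd (SE 0.27, 10.4-fold; limma adjusted p = 2.36e-06) and 3.73 in J (SE 0.27, 13.2-fold; limma adjusted p = 7.81e-07). Over both substrains it was 3.55 (SE 0.19; limma adjusted p = 2.53e-08), higher on 6 of 6 cerulein arrays, and it stood 3.07 log2 above the median gene. The order of group means was J cerulein, NHsd cerulein, NHsd saline and J saline. The neighbours of the same treatment overlapped: J minus NHsd was -0.04 log2 in saline (95% interval -0.63 to 0.54) and 0.30 after cerulein (95% interval -0.28 to 0.88).

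The summed marker signals of some other cell types moved with treatment as well, that of liver, the main known source of Ambp, among them. Of the 10 liver markers 6 lay under log2 4 on all arrays, among them Apoa1, Apoh, Ahsg and Apob, which encode abundant plasma proteins. Serpina1c, another marker of the list, went the other way. It was under log2 4 on all saline arrays but exceeded it on 2 cerulein arrays, with a highest value of 5.67. With so few arrays it did not pass the filter and was not tested. The summed signal of the list was log2 6.18 to 6.49 (NHsd saline), 7.17 to 8.24 (NHsd cerulein), 6.32 to 6.73 (J saline) and 6.87 to 8.62 (J cerulein). Every cerulein array was above every saline array, as for Ambp. Among the cerulein arrays the order was not that of Ambp. J replicate 2 had the lowest liver sum, 6.87, and the highest Ambp signal, 9.98. The highest liver sums, 8.24 and 8.62, were on NHsd and J replicate 1, where Ambp was 9.33 and 9.54. These orders describe the arrays only, and the part of liver in the Ambp signal was not tested. Alb, for albumin, and Fabp1, for a fatty acid binding protein of liver and gut, were under log2 4 on all saline arrays and entered the test through cerulein arrays alone, so their values are given without a test. After cerulein Alb was log2 5.47 ± 0.68 in NHsd and 5.27 ± 1.28 in J, and Fabp1 5.81 ± 0.97 and 5.89 ± 1.33 (SD, n = 3 each). Cyp2e1, the only liver marker measured in both treatments, did not pass the test. It differed by 0.24 log2 over both substrains (SE 0.26, limma adjusted p = 0.414). Of 7 tested acinar markers 5 fell and 1 rose, and of 3 duct markers 2 rose. Among all tested genes 59.4% rose and 10.1% fell, so the duct count is near the background. Of 5 islet markers 4 were measured in both treatments and rose, and Ppy entered through cerulein arrays alone. Of 6 macrophage markers 3 (Csf1r, Mpeg1 and Tyrobp) were measured in both treatments and rose, and the other 3 entered through cerulein arrays alone. The summed macrophage signal was log2 7.68 to 8.26 on saline and 10.66 to 11.42 on cerulein arrays. The part of any of these cell types in the values of Ambp and Itih4 was not tested.

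Itih5, the heavy chain gene expressed mainly outside the liver, rose after cerulein. It was log2 5.27, 5.11 and 4.77 on NHsd saline arrays and 8.59, 8.00 and 8.95 on NHsd cerulein arrays. On J saline arrays it was 5.92, 6.28 and 5.72, and on J cerulein arrays 7.33, 8.81 and 8.57. Every cerulein array was above every saline array, by at least 1.06 log2, and J cerulein replicate 1 was the lowest of the cerulein arrays. The rise was 3.46 log2 in NHsd (SE 0.35, 11.0-fold; limma adjusted p = 1.06e-05) and 2.27 in J (SE 0.35, 4.81-fold; limma adjusted p = 0.000193). Over both substrains it was 2.86 (SE 0.25; limma adjusted p = 8.02e-07), which is 2.38 log2 above the median gene.

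The order of Itih5 means was NHsd cerulein, J cerulein, J saline and NHsd saline. The cerulein groups overlapped, with J minus NHsd at -0.28 log2 (95% interval -1.03 to 0.48; limma adjusted p = 0.783). In saline all 3 J arrays were above all 3 NHsd arrays, by 0.92 log2 on average (SE 0.35), but this did not pass the test (limma adjusted p = 0.668). The cerulein effects differed by -1.20 log2, J minus NHsd, also without passing (SE 0.49; limma adjusted p = 0.702). Without J cerulein replicate 1 that difference was -0.74.

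Itih5 had 2 further probe sets, and all 3 gave the same direction. The second was log2 3.38 ± 0.66 on NHsd saline, 6.57 ± 0.37 on NHsd cerulein and 4.27 ± 0.14 on J saline arrays (SD, n = 3 each), and 4.65, 6.58 and 6.77 on the J cerulein arrays. The third was 3.24 ± 0.11, 5.27 ± 0.49, 3.44 ± 0.46 and 4.97 ± 1.15 in NHsd saline, NHsd cerulein, J saline and J cerulein. It passed the filter through cerulein arrays alone, so its difference of 1.78 log2 over both substrains is a description. On all 3 probe sets J cerulein replicate 1 had the lowest signal of the cerulein arrays, and on the third it overlapped the saline arrays.

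Markers of fibroblasts and stellate cells, the collagen-producing cells of the inflamed pancreas, and of macrophages were higher after cerulein, like Itih5. All 7 fibroblast and stellate markers were measured and all 7 rose, by a median of 2.53 log2 against 0.49 for all genes, of which 59.4% rose. Their summed signal was log2 10.96 to 11.34 (NHsd saline), 13.43 to 14.04 (NHsd cerulein), 11.34 to 11.60 (J saline) and 12.81 to 14.32 (J cerulein). The cerulein arrays with the lowest sums, J replicate 1 at 12.81 and NHsd replicate 2 at 13.43, also had the lowest Itih5 signals, 7.33 and 8.00. The same 2 cerulein arrays had the lowest macrophage sums, 10.66 and 10.77. They also had the lowest acinar sums, 17.32 and 17.33, and the lowest endothelial sums, 5.66 and 5.891. The endothelial sum of J cerulein replicate 3 was nearly the same, at 5.894. Low sums on this pair of arrays were thus seen beyond fibroblast and macrophage markers. The liver, duct, islet, mesothelial and adipocyte sums did not have this pair of arrays as their lowest. The part of any cell type in the rise of Itih5 was not tested.

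**Figure D2:**
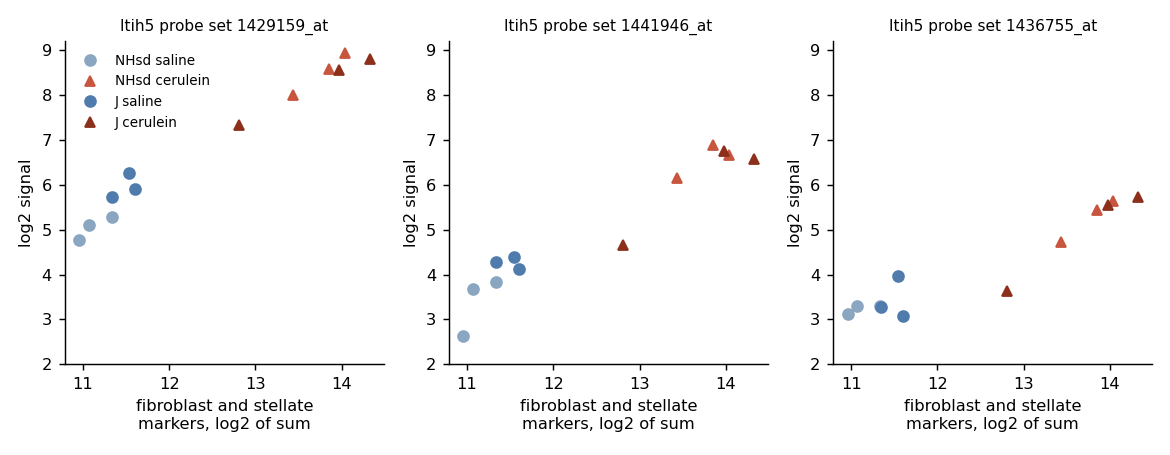
Log2 signal of each Itih5 probe set (y axes) against the log2 of the summed signal of 7 fibroblast and stellate cell markers (x axes), 1 point per array, with a colour for each group, circles for saline and triangles for cerulein. The cerulein array at the lower left of its treatment, at 12.81 on the x axis, is J cerulein replicate 1.

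Itih2, a heavy chain gene of the plasma complex, changed least of the 4 tested members. It was log2 6.52, 6.65 and 6.10 on NHsd saline arrays, 5.87, 5.75 and 5.91 on NHsd cerulein arrays, 6.54, 6.65 and 6.23 on J saline arrays and 5.36, 6.33 and 6.67 on J cerulein arrays. The NHsd groups did not overlap, whereas the J groups did. Over both substrains it fell by 0.47 log2 (SE 0.20; limma adjusted p = 0.0490), from 6.45 ± 0.23 to 5.98 ± 0.46 (SD, n = 6 each), and it stood 0.96 log2 below the median gene. Within a substrain it did not pass the test, at -0.58 in NHsd (SE 0.28; limma adjusted p = 0.0935) and -0.36 in J (SE 0.28; limma adjusted p = 0.289).

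The call for Itih2 over both substrains was close to the threshold. It ended when unfiltered genes were included (adjusted p = 0.123), with the replicate number as a block (0.0592) and without NHsd cerulein replicate 1, 2 or 3 (0.0776, 0.0886 and 0.0671), J cerulein replicate 1 (0.0685), NHsd saline replicate 1 or 2 (0.0893 and 0.105) or J saline replicate 1 or 2 (0.0863 and 0.102). Without J cerulein replicate 1 the difference was -0.28. With arrays shifted to equal medians it was -1.05 (adjusted p = 0.000316), and Itih2 then passed in NHsd (-1.17, adjusted p = 0.00329) and in J (-0.93, adjusted p = 0.0113). J minus NHsd was 0.05 log2 in saline (95% interval -0.56 to 0.65) and 0.27 after cerulein (95% interval -0.33 to 0.88).

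Itih1 and Itih3, the remaining heavy chain genes of the plasma complex, lay at the floor of 2.39 on all 12 arrays. They were not detectable in any group and were not tested.

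Counting the 3 tested members other than Itih4, 2 rose and 1 fell over both substrains, where 59.4% of all genes rose and 10.1% fell. All 4 tested members exceeded log2 4 on at least 3 arrays of each treatment. In NHsd 2 of the 3 rose, against 48.7% of all genes, and in J 2 of the 3, against 47.8%. These counts are near the background.

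**Figure D3:**
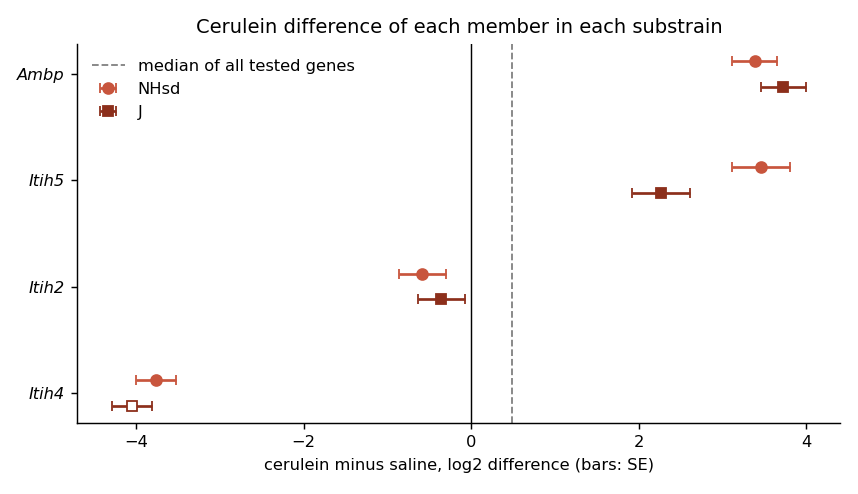
Cerulein minus saline in log2 units (x axis) for the 4 tested members (y axis), with NHsd as circles and J as squares; bars are SE. The open square is Itih4 in J, whose cerulein arrays were all under log2 4, and the dashed line is the median of all tested genes (0.49). Ambp and Itih5 lie to the right of that line, Itih2 and Itih4 to the left of 0.

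Of 24 genes that make, bind or break hyaluronan, the partner of the heavy chains, 23 had a probe set and 7 were tested. Of these, 3 (Stab1, Hmmr and Cemip2) passed the filter through cerulein arrays alone and could enter only by being high there. Of the other 4, measured in both treatments, Cd44, Ugdh and Lyve1 rose and Hapln4 did not pass, with a median of 1.03 log2. Among all genes measured in both treatments 4088 of 7306 (56.0%) rose, with a median of 0.42. Cd44, the main hyaluronan receptor of leukocytes and epithelia, rose by 3.48 (SE 0.22; limma adjusted p = 9.58e-08). Its NHsd means were log2 4.66 in saline and 7.92 after cerulein, and its J means 4.56 and 8.26. Stab1, a scavenger receptor of macrophages and endothelium, was at least 2.47-fold higher after cerulein in NHsd and 2.19-fold in J mice, given without a test. Ugdh, the enzyme that makes the sugar precursor UDP-glucuronate, rose by 1.07 (SE 0.11; limma adjusted p = 5.35e-06).

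With arrays shifted to equal medians 4 of the 7 genes were higher and 1 lower. That count includes Stab1, Hmmr and Cemip2, which entered through cerulein arrays alone, so it is a description. The hyaluronan synthase genes Has1, Has2 and Has3 reached at most log2 2.64. Tnfaip6, which encodes TSG-6, reached 3.14 and Ptx3, a pentraxin that binds the heavy chains on hyaluronan, 2.96, so none of these was above log2 4 on any array.

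Other Kunitz domain genes showed no common direction. Of 15 listed, 13 had a probe set and 7 were tested, of which Tfpi passed the filter through cerulein arrays alone. Of the other 6, 1 rose, 1 fell and 4 did not pass, with a median of 0.08 log2. Among all genes measured in both treatments 56.0% rose, with a median of 0.42. Col6a3, a collagen chain with a Kunitz domain, rose by 2.35 (SE 0.29; limma adjusted p = 1.83e-05). Tfpi, for the tissue factor pathway inhibitor, averaged log2 3.75 and 4.53 in NHsd and 3.87 and 4.88 in J, saline before cerulein. Spint1, an epithelial inhibitor of serine proteases, fell by 0.36 (SE 0.11; limma adjusted p = 0.0130). Over all 7, Tfpi included, 2 rose and 1 fell. With arrays shifted to equal medians 1 was higher and 3 were lower, and without J cerulein replicate 1 the number that rose was 4. As the filter set the direction of Tfpi, the counts over all 7 are descriptions.

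Of 19 other acute phase and plasma protein genes 17 had a probe set and 7 were tested. Crp, Hp and Lbp passed the filter through cerulein arrays alone and Saa2 through saline arrays alone, so their direction was set by the filter. Of the 3 measured in both treatments 2 (Cp and Saa3) rose and 1 (Apcs) fell. Among all genes measured in both treatments 56.0% rose, so the count of rises is near the background. Cp, for the copper-carrying ceruloplasmin, rose by 2.86 (SE 0.29; limma adjusted p = 3.15e-06), and Saa3, a serum amyloid gene, by 1.24 (SE 0.35; limma adjusted p = 0.00771). Without a test, Lbp, for the lipopolysaccharide-binding protein, averaged log2 4.48 in NHsd and 4.63 in J after cerulein, and Crp, for C-reactive protein, 4.12 and 4.46. Apcs, for serum amyloid P, fell by 0.58 (SE 0.21; limma adjusted p = 0.0253). Over all 7, Crp, Hp, Lbp and Saa2 included, 5 were called higher and 2 lower, which is a description. With arrays shifted to equal medians the counts were 3 and 2. The count of falls was 1 without NHsd cerulein replicate 2, J cerulein replicate 2 or 3, NHsd saline replicate 3 or J saline replicate 2. The fibrinogen genes Fgb and Fgg, Hpx, Orm1 and Orm2 stayed under log2 4 on all arrays. Fga, also a fibrinogen gene and not tested, exceeded log2 4 on 1 array, a J cerulein array at 4.15.

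**Figure D4:**
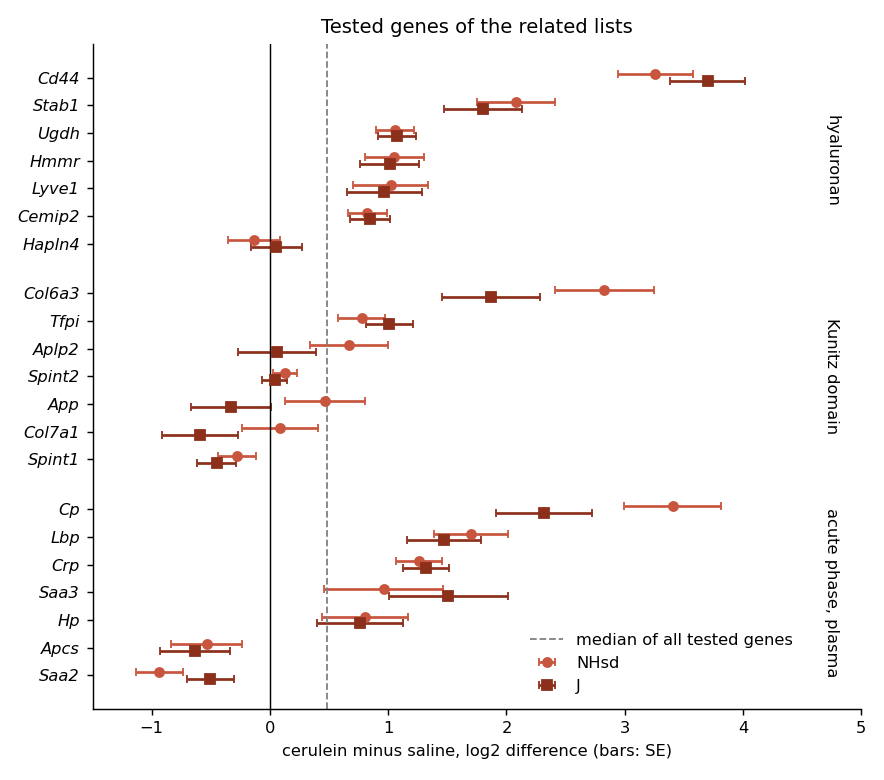
Cerulein minus saline in log2 units (x axis) for the tested genes of the hyaluronan, Kunitz domain and acute phase lists (y axis), with NHsd as circles, J as squares and SE as bars. The dashed line is the median of all tested genes (0.49). Stab1, Hmmr, Cemip2, Tfpi, Lbp, Crp and Hp passed the filter through cerulein arrays alone, and Saa2 through saline arrays alone. Cd44, Col6a3 and Cp lie farthest to the right in their lists, and Saa2, Apcs and Spint1 lie left of 0 in both substrains.

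The tested genes whose log2 values were most like those of Itih4 over the 12 arrays were Slc30a2, a zinc transporter gene (Pearson r = 0.979), Edem2, of the disposal of misfolded proteins (0.976), Susd2 (0.974), Hgfac, for the activator of hepatocyte growth factor (0.974), and Cables1 (0.970). Hgfac was log2 8.16 in NHsd saline, 7.91 in J saline, 6.65 in NHsd cerulein and 5.98 in J cerulein, the group order of Itih4. Closest to Ambp were Mdfic (r = 0.994), Rap1b (0.993) and Ctss (0.993), for the lysosomal protease cathepsin S of macrophages. Closest to Itih5 were Arglu1 (0.995), Antxr2 (0.991), an anthrax toxin receptor that binds matrix proteins, and Map3k20 (0.990). For Itih2 the highest values were lower: Golga2 (0.777), Jup (0.771) and Cdc42bpa (0.766). These correlations describe 12 arrays that share 1 treatment difference, so any gene with a clean difference scores high.

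In the RefSeq gene order Itih4, Itih3 and Itih1 stand side by side on chromosome 14, and Itih2 and Itih5 are neighbours on chromosome 2. The genes directly beside the Itih4 cluster, Mustn1 and Nek4, were not tested, and neither was Stimate. The genes tested nearby did not share the values of Itih4. Of the nearest 3 protein-coding genes on each side of its cluster 3 were tested: Sfmbt1 differed by 0.20 log2 (SE 0.15; limma adjusted p = 0.263), Spcs1, for a signal peptidase subunit, rose by 0.73 (SE 0.09; limma adjusted p = 1.60e-05), and Glt8d1 by 0.95 (SE 0.13; limma adjusted p = 2.85e-05). None of the 3 passed the test between J and NHsd in saline (limma adjusted p = 0.803 to 0.889). On chromosome 2 Pfkfb3, a regulator of glycolysis, rose by 0.74 (SE 0.20; limma adjusted p = 0.00473) and Atp5c1, an ATP synthase subunit, differed by 0.27 (SE 0.12; limma adjusted p = 0.0591). Near Ambp on chromosome 4 only Rgs3 was tested, at 0.25 (SE 0.12; limma adjusted p = 0.0801).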

How the data were processed

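Total RNA of mouse pancreas, 1 array per mouse and 3 mice in each of 4 groups, was labelled as biotin cRNA from 100 ng, per the labels' protocols. The authors deposited 1 log2 signal per probe set. GCRMA and Partek are named in the submitters' processing notes; versions are not given in the sources used here. Values were used as deposited. Of 45101 probe sets 34958 carried 1 gene symbol, by the platform annotation; 932 with several symbols and 9211 with none were left out. RefSeq held the Entrez number of 34754, with 0 symbols changed. A probe set was kept above log2 4 on at least 3 arrays, and each gene was represented by the kept one of highest mean.

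limma 3.58.1 (R 4.3.3) was fitted to all 12 arrays and 8505 genes, with 1 mean per group, 8 residual degrees of freedom (prior 4.37) and an intensity trend. Tests were two-sided, with Benjamini-Hochberg adjustment over all genes and a threshold of 0.05. Where all arrays of a group lay under log2 4, folds are bounds against log2 4. The labels call the arrays of a group biological replicates, and their number limits the precision. The fit was checked on simulated data. The members, the gene lists and the rule for named genes (all members; up to 3 called genes a list and direction; the genes most correlated with each member; the nearest neighbours) were chosen with earlier results of these data known. Genes named as under log2 4 and the second probe sets were picked after their values were seen. Summed marker signals add linear signals. Tables and figures were made with matplotlib 3.10.9, pandas 2.3.3 and Python 3.11.15. The alternatives changed the normalization, filter, model, probe set and samples.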

Additional observations from a re-analysis of the deposited data

How the results depend on the processing

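The alternatives were quantile normalization, equal array medians, no filter, a stricter filter (log2 6), fits without a trend or with robust moderation, averaged probe sets, a replicate block, only the groups compared, the other Itih5 probe sets and each array left out in turn. The rises of Ambp and Itih5, over both substrains and in each, passed the test in every one of these that was run, leaving aside the third Itih5 probe set, which passed the filter through cerulein arrays alone. Itih4, cerulein minus saline, was -4.28 (quantile) and -4.34 (equal medians) in NHsd and -4.43 and -4.62 in J, and with single arrays left out -4.07 to -3.49 and -4.10 to -3.98. Itih4, J minus NHsd in saline, kept -1.66 log2 with no filter (adjusted p = 0.0544), only the groups compared (0.0628) and the replicate block (0.0926), and ran from -1.76 to -1.55 with arrays left out (adjusted p from 0.00342 to 0.211, called in 3 of 12). So the count of members called was 0 there under those 3 settings and 0 to 1 with arrays left out; after cerulein it was 0 with no filter and with only the groups compared. At a p below 0.05 without adjustment, limma had 546 genes in the first comparison and 800 in the second, against 5 and 19 called; no gene was called in either with only the groups compared. The replicate block changed 1 more call, Itih2 over both substrains (limma adjusted p = 0.0592). Same-numbered arrays deviated together by r = -0.16 to 0.34 (18 pairs, 6 over 0.1), and differently numbered arrays by -0.37 to 0.25. Of 12 arrays 6 correlated best with an array of their own number. These values cannot settle whether a replicate number marks a shared batch. With no filter 7 genes were higher and 30 lower in J in saline, 8 and 2 after cerulein, and 13 and 2 in the cerulein effect. With equal medians 2262 genes rose and 3072 fell over both substrains, against 5049 and 855. Counting also genes that passed the filter through 1 treatment, of the hyaluronan list 2 genes rose with a filter at log2 6, and 1 fell with no filter; the same filters gave 1 rise for the Kunitz list (log2 6), 2 falls (no filter), and 2 rises and 0 falls for the acute phase list (log2 6). Signals at the floor bound what can be said of Itih1, Itih3 and, in J after cerulein, Itih4.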
